A study of Mus musculus with 28 samples.

Results

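The 9 genes described here code for proteins of coagulation and fibrinolysis: F3, F10, F13a1, Thbd, Procr, Plau, Plaur, Serpinb2 and Thbs1. They were chosen by function, as clotting factors, receptors of the anticoagulant protein C pathway, and activators and inhibitors of clot lysis. Earlier results of these data were known when they were chosen. The members make up 9 of the 54532 genes in the deposited count table. Expression was measured by bulk RNA sequencing in 28 cultures of murine bone marrow-derived macrophages (BMDMs), which are marrow cells grown into macrophages with the growth factor M-CSF. VWF-treated cultures (5 at 3.5 h and 5 at 16 h) received 10 µg/ml of pd-VWF, the plasma protein von Willebrand factor, which recruits platelets to injured vessels. LPS-treated cultures (4 at each time) received 100 ng/ml of the bacterial endotoxin LPS, and control cultures (5 at each time) received PBS. All 28 cultures, controls included, were in fresh medium with 1 mM CaCl2 after an overnight culture with fetal bovine serum and M-CSF, and the labels name no genotype, strain or animal age. The labels number the cultures of a group as biological replicates but do not say whether a number stands for an animal, a marrow preparation or a day, so the p-values measure only the spread between these cultures.

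Coagulation starts when tissue factor, the product of F3, meets factor VII in plasma and the complex activates factor X, the product of F10. Factor Xa makes thrombin, thrombin makes fibrin, and factor XIII, whose A subunit is the product of F13a1, cross-links fibrin. Thrombomodulin (Thbd) and the endothelial protein C receptor (Procr) turn thrombin towards activation of protein C, an anticoagulant. Urokinase (Plau), held at the cell surface by its receptor (Plaur), activates plasminogen to plasmin, which dissolves fibrin, and plasminogen activator inhibitor 2 (Serpinb2) inhibits urokinase. Monocytes and macrophages are a known site of tissue factor, urokinase and factor XIII-A expression.

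Total counts per culture lay between 41131209 and 77699206, with a median of 52986574. The label of the cells was checked against marker lists: 7 of 7 macrophage markers reached 10 TPM (a count scaled by transcript length and library total) in at least 1 culture, and their summed level was 5697 to 50050 TPM. Of the other cell types, 0 of 5 lymphocyte, 0 of 3 mast cell and 0 of 3 hepatocyte markers reached 10 TPM. The most abundant of the others were Ppbp of platelets at 0.456 to 38.7 TPM, Col1a1 of fibroblasts at 1.37 to 81.1 TPM, Kdr of endothelial cells at 0.169 to 16.6 TPM, Ngp of neutrophils at 0.410 to 12.8 TPM and Xcr1 of dendritic cells at 0.177 to 11.5 TPM. In bulk samples, fewer cells of a type and less RNA per cell cannot be told apart. Replicate 5 of the control at 16 h stood apart from its group, with the macrophage marker Lyz2 at 5413 TPM against 24880 to 30870 TPM in the other 4, and was the lowest of its group for F13a1, Thbd, Procr, Serpinb2 and Col1a1. Results that rest on it are given with and without it.

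Treatment was compared with time-matched control by edgeR's quasi-likelihood test with Benjamini-Hochberg adjustment over all genes tested, and a gene was called when its adjusted p was under 0.05 and its log2 fold change was over 1 in size. A gene entered a comparison when 1 of its cultures reached 10 TPM. With VWF at 3.5 h, 4 of the 8 members tested were called, F10 and Procr higher and Thbd and Plau lower, against 14.7% of all genes tested. With LPS at 3.5 h, 7 of 9 were called against 24.5% of all genes: F3, F10, Procr, Plaur and Serpinb2 were higher, and Thbd and Plau were lower. At 16 h, VWF left 3 of 8 members called against 8.71% of all genes, Procr higher and Plau and Serpinb2 lower. LPS at 16 h left 6 of 8 called against 27.6%, with F10, Procr, Serpinb2 and Thbs1 higher and F13a1 and Plau lower. The VWF and LPS comparisons at a time share the same 5 control cultures. A member that passed the 10 TPM filter through 1 group alone was kept by its level there, which favours a difference without forcing one. The members were also chosen with earlier results of these data known. The counts are therefore no test of the members as a set, and are read gene by gene below.

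**Figure D1:**
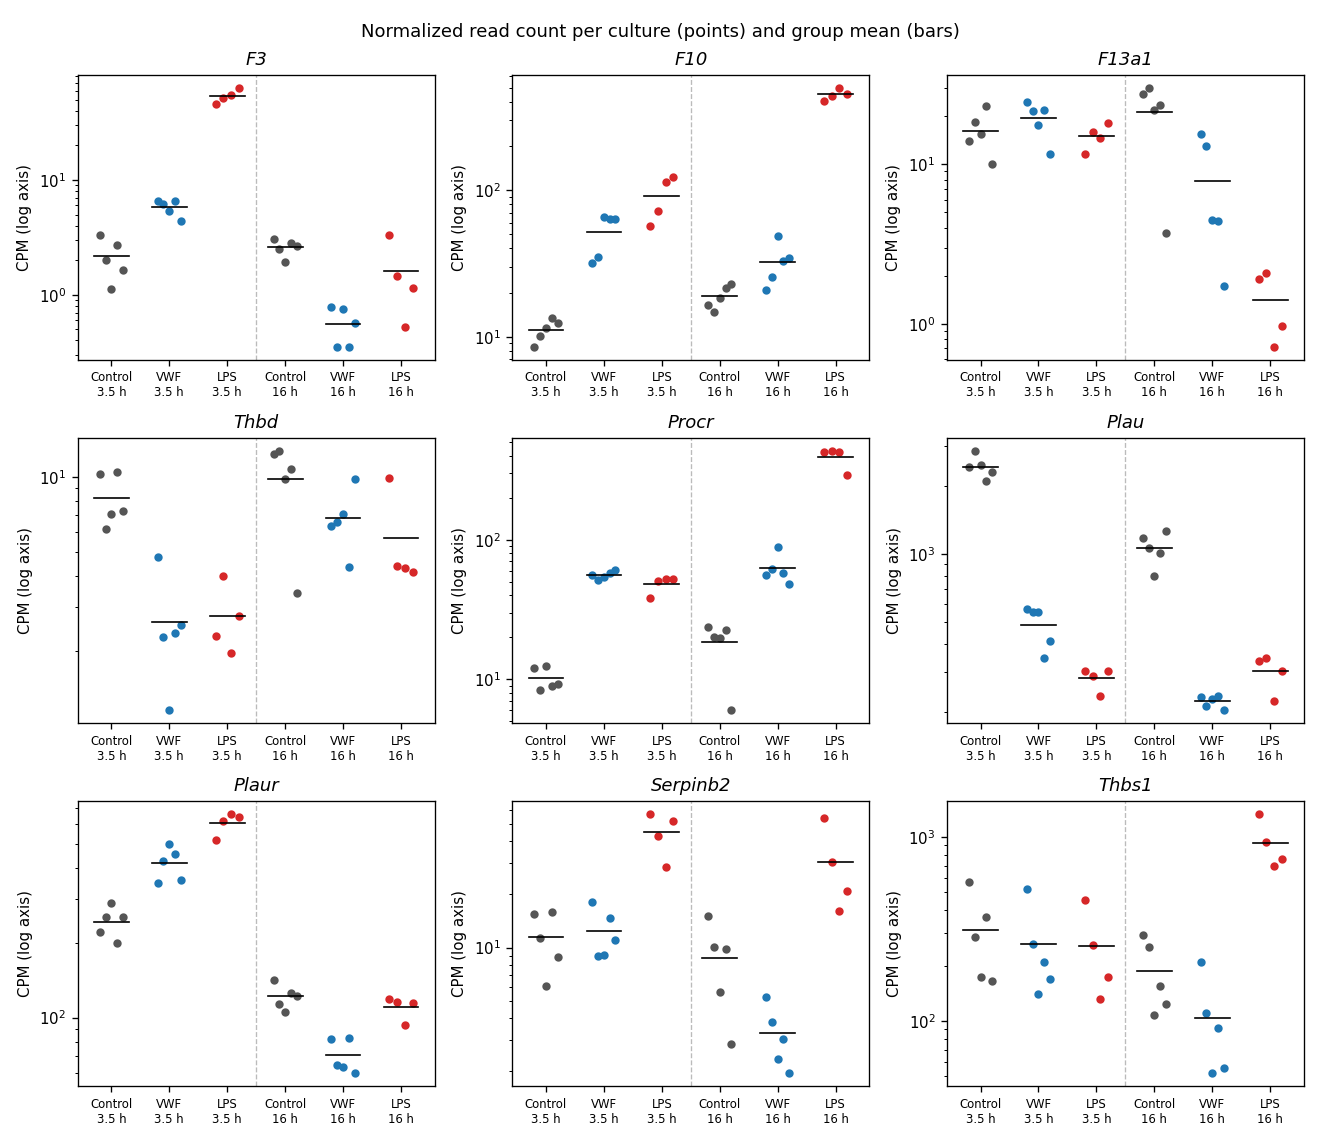
Normalized read count (CPM, a count scaled to library size with TMM factors, log axis) of each member in each culture, by treatment and time; points are cultures and bars are group means. F3 was 45.7 to 63.6 CPM with LPS at 3.5 h and at or under 6.61 CPM in every other group, and Plau was at or under 570.3 CPM in every treated culture and at or over 797 CPM in every control.

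Before the levels, the DNA upstream of 4 of the members that rose with LPS at 3.5 h is shown. RefSeq's promoter windows for mouse build GRCm38.p6, each 250 bases before to 50 bases after a transcript start, held 6 of the 9 members (F3, F10, F13a1, Procr, Plaur and Serpinb2), and those printed are the ones with a match to the AP-1 motif TGANTCA, chosen after the search. The bases before the start are printed 5′ to 3′ in lower case, with matches to the motifs searched in capitals. The Procr window ends where the GENCODE gene begins, 100 bases before the RefSeq start.
F3 chr3:121723287-121723536, plus strand: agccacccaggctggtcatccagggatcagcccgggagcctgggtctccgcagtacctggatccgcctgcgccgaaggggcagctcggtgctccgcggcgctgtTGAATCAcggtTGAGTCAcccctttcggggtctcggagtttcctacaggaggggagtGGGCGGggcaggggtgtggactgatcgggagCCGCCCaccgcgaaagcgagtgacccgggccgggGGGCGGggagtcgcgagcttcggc
Plaur chr7:24462233-24462482, plus strand: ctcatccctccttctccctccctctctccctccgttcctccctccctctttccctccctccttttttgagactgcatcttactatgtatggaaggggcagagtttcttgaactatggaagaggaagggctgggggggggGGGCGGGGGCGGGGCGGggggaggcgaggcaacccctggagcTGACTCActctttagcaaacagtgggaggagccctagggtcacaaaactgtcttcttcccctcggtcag
Serpinb2 chr1:107511173-107511422, plus strand: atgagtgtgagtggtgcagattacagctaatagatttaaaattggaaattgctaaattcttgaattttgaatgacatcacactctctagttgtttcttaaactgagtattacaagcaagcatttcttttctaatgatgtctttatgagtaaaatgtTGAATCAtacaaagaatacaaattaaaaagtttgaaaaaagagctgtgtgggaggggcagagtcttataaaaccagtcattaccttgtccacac
Procr chr2:155750967-155751116, plus strand: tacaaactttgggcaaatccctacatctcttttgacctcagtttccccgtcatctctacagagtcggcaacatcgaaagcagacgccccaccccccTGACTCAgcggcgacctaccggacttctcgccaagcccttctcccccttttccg

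Of the 6 members with windows, 4 thus held the AP-1 motif, which 7.81% of the 32817 mouse windows hold. F3 had 2 matches, beginning 146 and 135 bases before the start, Plaur had 1 at 69 bases, Serpinb2 1 at 94 bases and Procr 1 at 154 bases before the RefSeq start. The windows of F10, which also rose with both treatments at 3.5 h, and F13a1 held none and are not printed. The SP1 motif GGGCGG (35.6% of windows) matched 3 times in F3 and 3 times in Plaur, where the EGR motif GCGGGGGCG (2.91% of windows) overlapped the first 2 of them. Both strands were searched, and no member window had a match to the CRE motif TGACGTCA (1.79% of windows). None matched the NF-kappaB consensus GGGRNWYYCC (4.5%), where R is A or G, W is A or T, and Y is C or T. Sites that depart from these patterns by any letter were not searched for, so the lack of a match does not show that a site is absent. The PU.1 motif GAGGAAGT (3.2% of windows) matched only after the start, in 1 of the 2 windows of F13a1. These are matches of letters in a short window, not measured binding, and the windows were not chosen independently of the expression results.

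F3 (ENSMUSG00000028128, chr3:121723537-121735048 on the plus strand of GRCm38) codes for tissue factor. Its level ran from a group mean of 0.560 ± 0.208 CPM with VWF at 16 h (SD, n = 5) to 53.9 ± 7.46 CPM with LPS at 3.5 h (n = 4). At 3.5 h it was 23.9-fold higher with LPS than with control. Its level in the 5 controls at 3.5 h was 3.29, 2.01, 1.12, 2.73 and 1.63 CPM. In the VWF cultures it was 6.57, 6.18, 5.33, 6.61 and 4.43 CPM, and in the LPS cultures 45.7, 51.8, 54.5 and 63.6 CPM. The 3 groups did not overlap: every VWF culture was above every control and below every LPS culture. The log2 fold change of LPS against control was 4.58 (SE 0.28, adjusted p = 1.03e-07). VWF against LPS gave −3.22 (SE 0.15, adjusted p = 1.13e-07). F3 passed the filter in these comparisons only through the LPS cultures, which were at 36.7 to 47.8 TPM, and its highest VWF culture was at 8.07 TPM.

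For that reason F3 was not tested with VWF under the filter used for each comparison. When genes at 10 TPM in any of the 28 cultures were fitted, VWF at 3.5 h gave a log2 fold change of 1.34 (SE 0.28, adjusted p = 0.00207), a 2.53-fold rise, with 15.3% of genes called in that fit. VWF against LPS at 3.5 h, where 11.6% of genes were called in that fit, remained called for F3, and Thbd did not pass (log2 fold change −0.10, adjusted p = 0.83).

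F3 was low in each group at 16 h. The controls were at 3.04, 2.48, 1.91, 2.81 and 2.66 CPM, the VWF cultures at 0.784, 0.352, 0.75, 0.351 and 0.563 CPM, and the LPS cultures at 3.33, 1.45, 0.519 and 1.14 CPM. All 5 VWF cultures were under all 5 controls, while the LPS cultures spanned both groups. The VWF values rest on 20 to 50 reads per culture. In the wider fit, where 9.13% of genes were called, F3 fell with VWF by 2.32 on the log2 scale (SE 0.30, adjusted p = 0.000175), a factor of 5 in size. LPS gave −0.69 (SE 0.48, adjusted p = 0.26) in a fit with 27.1% of genes called. VWF against LPS at 16 h gave −1.61 (SE 0.52, adjusted p = 0.024), with 25.3% of genes called, though the cultures of the 2 groups overlapped. The effect of VWF on F3 thus had opposite signs at the 2 times, and its change was −3.62 (SE 0.41, adjusted p = 8.99e-07) against 13.9% of genes called. The change of the LPS effect was −5.26 (SE 0.57, adjusted p = 8.79e-07), where F3 passed the filter only through the LPS cultures at 3.5 h. Between the control groups F3 did not pass (0.31, adjusted p = 0.432, with 9.55% of genes called in the wider fit).

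F10 (ENSMUSG00000031444, chr8:13037308-13056676 on the plus strand of GRCm38) codes for factor X. It rose with both treatments at 3.5 h and 23.1-fold with LPS at 16 h. The controls at 3.5 h were at 8.52, 10.2, 11.5, 13.3 and 12.4 CPM. VWF cultures were at 31.9, 34.9, 65, 63.1 and 63.2 CPM, and LPS cultures at 56.5, 71.7, 113.7 and 122.3 CPM. Each VWF and LPS culture was above each control. Replicates 1 and 2 were the lowest in each of these 3 groups. By edgeR, VWF gave a log2 fold change of 2.13 (SE 0.21, adjusted p = 8.46e-06) and LPS one of 2.98 (SE 0.21, adjusted p = 3.07e-07). VWF against LPS gave −0.83 (SE 0.27, adjusted p = 0.0251), under the size asked of a call, and the 2 groups overlapped.

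The F10 controls at 16 h were at 16.4, 14.8, 18.4, 21.6 and 23 CPM. VWF cultures were at 21, 25.5, 48.4, 32.9 and 34.2 CPM, and LPS cultures at 406, 439, 499 and 453 CPM. VWF cultures overlapped the controls, and all 4 LPS cultures were far above both groups. VWF gave a log2 fold change of 0.66 (SE 0.21, adjusted p = 0.0416), under the size of a call, and LPS gave 4.53 (SE 0.17, adjusted p = 4.65e-08). F10 was lower with VWF than with LPS by 3.83 on the log2 scale (SE 0.22, adjusted p = 3.98e-07). The effect therefore moved apart over time: its change from 3.5 h to 16 h was −1.45 with VWF (SE 0.32, adjusted p = 0.00126) and 1.58 with LPS (SE 0.28, adjusted p = 0.000164).

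F13a1 (ENSMUSG00000039109, chr13:36867178-37050244 on the minus strand of GRCm38) codes for the A subunit of factor XIII. It did not pass at 3.5 h and fell 15.2-fold with LPS at 16 h. At 3.5 h its group means were 16.2 ± 4.92 CPM in the controls (SD, n = 5), 19.5 ± 5.04 CPM with VWF (n = 5) and 15.03 ± 2.71 CPM with LPS (n = 4), and the 3 groups overlapped. At 16 h the controls were at 27.4, 30.1, 21.7, 23.6 and 3.69 CPM, the VWF cultures at 15.5, 13, 4.45, 4.41 and 1.73 CPM, and the LPS cultures at 1.9, 2.07, 0.716 and 0.970 CPM. The low control is replicate 5, the culture that stood apart, and it lay within the range of the VWF cultures and above all 4 LPS cultures. LPS gave a log2 fold change of −3.93 (SE 0.62, adjusted p = 0.00051 by edgeR). VWF gave −1.55 (SE 0.65, adjusted p = 0.109). Without control replicate 5, F13a1 fell by 4.19 with LPS (adjusted p = 8.29e-06) and by 1.81 with VWF (adjusted p = 0.0173). F13a1 passed the filter at 16 h only through 4 controls. The LPS effect at 16 h differed from that at 3.5 h by −3.75 (SE 0.63, adjusted p = 0.000102). VWF against LPS at 16 h was not tested under the filter and gave 2.40 (SE 0.67, adjusted p = 0.0111) in the wider fit. Exons of the antisense gene Gm30489 cover 1.1% of F13a1's exon length, and the strand setting of the counting is not given in the sources used here.

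Thbd (ENSMUSG00000074743, chr2:148404466-148408188 on the minus strand of GRCm38) codes for thrombomodulin. It fell at 3.5 h with both treatments, by a factor of 3.28 with VWF and 3.08 with LPS. Controls at 3.5 h were at 10.3, 6.16, 7.08, 10.4 and 7.3 CPM. VWF cultures were at 4.78, 2.28, 1.16, 2.35 and 2.55 CPM, and LPS cultures at 2.3, 3.99, 1.96 and 2.76 CPM. All 9 treated cultures were under all 5 controls. It fell by 1.71 on the log2 scale with VWF (SE 0.34, adjusted p = 0.00155) and by 1.62 with LPS (SE 0.26, adjusted p = 0.000258). The gene passed the filter through 1 control culture alone, replicate 4 at 10.3 TPM, so without that culture it was not tested. In the fit of genes at 10 TPM in any of the 28 cultures it gave −1.72 with VWF (SE 0.33, adjusted p = 0.00128). It entered that fit too only through controls, replicate 4 at 3.5 h and replicates 1 and 2 at 16 h.

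In the Thbd controls at 16 h the levels were 12.4, 12.7, 9.82, 10.8 and 3.42 CPM, VWF cultures at 6.35, 6.59, 7.06, 4.36 and 9.81 CPM, and LPS cultures at 9.88, 4.38, 4.3 and 4.13 CPM. The low control is again replicate 5, and the 3 groups overlapped. Neither treatment passed, with −0.64 for VWF (SE 0.33, adjusted p = 0.192) and −0.81 for LPS (SE 0.42, adjusted p = 0.136). LPS passed when either control replicate 5 (−1.02, adjusted p = 0.0189) or LPS replicate 1 (−1.25, adjusted p = 0.0283) was left out. Without that control VWF gave −0.85 (adjusted p = 0.00535), under the size of a call.

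Procr (ENSMUSG00000027611, chr2:155751117-155755471 on the plus strand of GRCm38) codes for the endothelial protein C receptor. It was higher with both treatments at both times and reached 21-fold with LPS at 16 h. At 3.5 h the controls were at 12, 8.42, 12.6, 8.9 and 9.34 CPM. VWF cultures were at 55.9, 51.9, 54, 57.8 and 60.6 CPM, and LPS cultures at 38.5, 51, 52 and 52.4 CPM. The treated cultures were all above the controls, and in CPM the 2 treatments overlapped. In TPM, which carries no TMM factors, every VWF culture (62.5 to 87.6 TPM) was above every LPS culture (38.5 to 55.2 TPM). The rise was 2.38 on the log2 scale with VWF (SE 0.13, adjusted p = 5.52e-08) and 2.20 with LPS (SE 0.15, adjusted p = 2.42e-07) by edgeR. VWF against LPS gave 0.20 (SE 0.10, adjusted p = 0.122).

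The Procr controls at 16 h were at 23.7, 20.2, 19.8, 22.4 and 6.03 CPM, VWF cultures at 55.9, 61.5, 88.8, 57.7 and 48.4 CPM, and LPS cultures at 428, 434, 427 and 291 CPM. The 3 groups did not overlap. The rise was 1.65 on the log2 scale with VWF (SE 0.32, adjusted p = 0.00311) and 4.39 with LPS (SE 0.37, adjusted p = 6.74e-06). Without control replicate 5 these were 1.43 (adjusted p = 5.17e-05) and 4.17 (adjusted p = 8.83e-08). VWF against LPS was −2.69 (SE 0.19, adjusted p = 1.46e-06). The effect of LPS grew by 2.21 from 3.5 h to 16 h (SE 0.37, adjusted p = 0.00011), and the change of the VWF effect did not reach the size of a call (−0.71, SE 0.34, adjusted p = 0.13, and −0.92, adjusted p = 0.00122, without that culture). The endothelial marker Kdr was also highest with LPS at 16 h, at 8.07 to 16.6 TPM, where the 4 endothelial markers summed to 11.3 to 21.8 TPM against 0.545 to 1.32 TPM in the controls. Procr itself was at 253 to 486 TPM in those LPS cultures, and the part of endothelial cells in it was not tested.

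F3 and Thbd lie on opposite sides of the system, one starting coagulation and the other restraining it, and their ratio was taken within each culture. The ratio of F3 TPM to Thbd TPM at 3.5 h was 0.380 ± 0.103 in the controls (SD, n = 5), 3.90 ± 1.85 with VWF (n = 5) and 30.9 ± 9.21 with LPS (n = 4). The highest control was 0.481, the VWF cultures ran from 2.02 to 6.79, and the lowest LPS culture was 19.1. At 16 h the ratio was 0.494 ± 0.368 in the controls, 0.124 ± 0.0448 with VWF and 0.393 ± 0.149 with LPS. Control replicate 5 had the highest ratio of its group, 1.15, and without it the controls were at 0.331 ± 0.0507 (n = 4), under the LPS mean. The ratio describes 2 members at the RNA level, with no test.

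**Figure D2:**
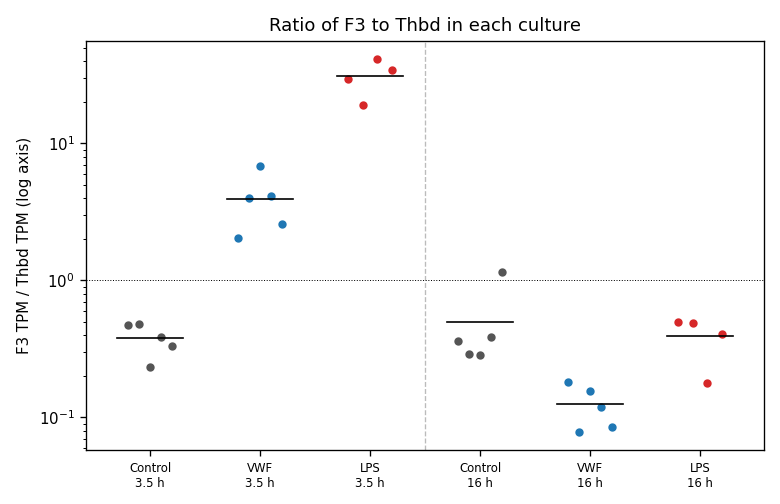
Ratio of F3 TPM to Thbd TPM (log axis) in each culture, by treatment and time; points are cultures, bars are group means and the dotted line marks a ratio of 1. At 3.5 h the controls lie at or under 0.481, VWF cultures at 2.02 to 6.79 and LPS cultures at 19.1 to 41.1, while at 16 h all VWF and LPS cultures lie under 1.

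Plau (ENSMUSG00000021822, chr14:20836660-20843385 on the plus strand of GRCm38) codes for urokinase. It was the most abundant member in both control groups, and at 3.5 h it stood at 3365 ± 284 TPM there (SD, n = 5), rank 26 among all genes, and took 0.285% of all counts. It was lower in every treated group. Controls at 3.5 h were at 2403, 2843, 2461, 2089 and 2295 CPM. VWF cultures were at 570.3, 555, 551, 345 and 412 CPM, and LPS cultures at 303, 289, 235 and 303 CPM. Every treated culture was under every control, and the VWF cultures were all above the LPS cultures. The log2 fold change was −2.39 with VWF (SE 0.16, adjusted p = 3.03e-07) and −3.14 with LPS (SE 0.15, adjusted p = 9.14e-09). VWF against LPS gave 0.77 (SE 0.17, adjusted p = 0.00381), under the size of a call.

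At 16 h Plau was already lower in the controls, at 1178, 1057, 797, 1010.0 and 1260.0 CPM, a log2 difference of −1.13 from the controls at 3.5 h (SE 0.15, adjusted p = 0.000265). Plau was the only 1 of 8 members called between the control groups, against 9.11% of all genes tested. VWF cultures at 16 h were at 233, 212, 228, 236 and 204 CPM, and LPS cultures at 336, 345, 225 and 303 CPM. Both were under all controls. The log2 fold change was −2.37 with VWF (SE 0.14, adjusted p = 1.22e-06) and −1.85 with LPS (SE 0.20, adjusted p = 3.54e-05). The effect of VWF changed by 0.03 between the times (SE 0.21, adjusted p = 0.933), and that of LPS became smaller in size by 1.30 (SE 0.23, adjusted p = 0.000154).

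Plaur (ENSMUSG00000046223, chr7:24462484-24475968 on the plus strand of GRCm38) codes for the urokinase receptor. It rose with LPS at 3.5 h, when Plau fell. Its controls were at 221, 253, 288, 199.8 and 254 CPM, VWF cultures at 349, 428, 501, 457 and 357 CPM, and LPS cultures at 517, 621, 659.8 and 642 CPM. In CPM the 3 groups did not overlap, with LPS the highest. In TPM the lowest LPS culture, at 400.7 TPM, was under every VWF culture (401 to 450.1 TPM). LPS gave a log2 fold change of 1.28 (SE 0.11, adjusted p = 1.74e-06), which was 0.76 and not called with library size scaling, and VWF 0.71 (SE 0.11, adjusted p = 0.000322), under the size of a call. At 16 h all groups were lower: controls were at 142, 114, 106, 125 and 122 CPM, VWF cultures at 82.2, 64.2, 63.3, 83 and 59.7 CPM, and LPS cultures at 119, 116, 93.3 and 115 CPM. In CPM the VWF cultures were under all others, with −0.90 against control (SE 0.13, adjusted p = 0.000497), and LPS overlapped the controls (−0.17, SE 0.13, adjusted p = 0.278). In TPM the VWF cultures (64.5 to 88.7 TPM) overlapped the LPS cultures (77.4 to 104.6 TPM), and both were under all controls (109 TPM and over). The effect of each treatment thus dropped from 3.5 h to 16 h, by −1.59 with VWF (SE 0.18, adjusted p = 7.16e-07) and −1.44 with LPS (SE 0.16, adjusted p = 1.2e-06). In the changes over time, 3 of 8 members were called for VWF (F10, Plaur and Serpinb2, each downward) against 13.5% of all genes. For LPS, 7 of 9 were called against 26.3%, with F10, Procr, Plau and Thbs1 upward and F3, F13a1 and Plaur downward. There F3 passed the filter only through the 4 LPS cultures at 3.5 h, and F13a1 only through controls.

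Serpinb2 (ENSMUSG00000062345, chr1:107511423-107535478 on the plus strand of GRCm38) codes for plasminogen activator inhibitor 2. It was lower with VWF than with LPS at both times. At 3.5 h the controls were at 15.4, 11.3, 6.07, 15.8 and 8.81 CPM, VWF cultures at 18.2, 8.91, 9.12, 14.7 and 11.1 CPM, and LPS cultures at 56.8, 42.6, 28.5 and 51.9 CPM. VWF and control overlapped throughout, and in CPM every LPS culture was above both. In TPM the lowest LPS culture (22.9 TPM) was under the highest control (24.9 TPM) and the highest VWF culture (24.0 TPM). LPS gave a log2 fold change of 1.92 (SE 0.30, adjusted p = 0.000194) and VWF 0.03 (SE 0.30, adjusted p = 0.952). VWF against LPS was −1.87 (SE 0.27, adjusted p = 0.000239), so that F3 and Serpinb2 were the 2 of 8 members called between the treatments at 3.5 h, against 11.4% of all genes.

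At 16 h the Serpinb2 controls were at 15, 10.1, 5.63, 9.88 and 2.86 CPM, VWF cultures at 5.27, 3.82, 2.35, 3.06 and 1.95 CPM, and LPS cultures at 54.1, 30.3, 16.1 and 20.8 CPM. The LPS cultures were all above the controls, and the VWF cultures overlapped the lowest control, replicate 5. LPS gave 1.79 (SE 0.50, adjusted p = 0.013) and VWF −1.51 (SE 0.43, adjusted p = 0.0245), or 1.56 (adjusted p = 0.0122) and −1.73 (adjusted p = 0.00214) without control replicate 5. On the TPM scale, which carries no TMM factors, the LPS cultures were at 15.7 to 53.1 TPM and overlapped the controls, which reached 20.7 TPM, and the LPS call was lost with library size scaling (1.21, adjusted p = 0.0672). Serpinb2 passed the filter against control at 16 h with VWF only through 3 controls, replicates 1, 2 and 4. The VWF call was lost without any one of control replicates 1, 2 and 4 or VWF replicates 3, 4 and 5, with adjusted p from 0.0532 to 0.0633. VWF against LPS was −3.24 (SE 0.43, adjusted p = 0.000108), where the gene passed the filter only through the 4 LPS cultures. The change of the VWF effect between the times was −1.52 (SE 0.54, adjusted p = 0.0378), and it too was lost without any one of 11 cultures, with an adjusted p of up to 0.0879. Serpinb10 shares 12.4% of Serpinb2's exon length on the same strand, so some of these reads are uncertain between the 2 genes.

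Thbs1 (ENSMUSG00000040152, chr2:118111876-118127133 on the plus strand of GRCm38) codes for thrombospondin 1, a protein of platelet granules and the matrix. It rose with LPS at 16 h. Exons of the antisense gene Gm29233 cover 3.42% of its exon length. At 3.5 h the controls were at 568, 285, 174, 368 and 165 CPM, VWF cultures at 522, 263, 141, 209 and 168 CPM, and LPS cultures at 454, 260.3, 131 and 173 CPM. The 3 groups overlapped, and replicate 1 was the highest in each. Neither treatment passed at that time (VWF −0.33, adjusted p = 0.604; LPS −0.34, adjusted p = 0.518). At 16 h the controls were at 293, 254, 108, 155 and 124 CPM, VWF cultures at 209, 111, 52, 91.1 and 55.3 CPM, and LPS cultures at 1331, 939.5, 691 and 758 CPM. Every LPS culture was above every other, with a log2 fold change of 2.29 against control (SE 0.35, adjusted p = 0.000375) and a 4.89-fold rise. VWF gave −0.95 (SE 0.43, adjusted p = 0.138), and passed without VWF replicate 1 (−1.39, adjusted p = 0.0244). VWF against LPS at 16 h was −3.20 (SE 0.44, adjusted p = 0.00015). There 4 of the 6 members tested were called, F10, Procr, Serpinb2 and Thbs1, each lower with VWF, against 25.5% of all genes. Serpinb2 passed the filter only through the LPS cultures, and F3, F13a1 and Thbd did not pass it. In the wider fit (25.3% called) F13a1 was higher with VWF (2.40, adjusted p = 0.0111) and F3 lower (−1.61, adjusted p = 0.024). Thbd was not called there (0.20, adjusted p = 0.632). The effect of LPS on Thbs1 rose by 2.63 from 3.5 h to 16 h (SE 0.62, adjusted p = 0.00209).

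Within groups, the members were set beside the summed level of the fibroblast markers. The culture with the highest Thbs1 TPM also had the highest summed fibroblast markers in 5 of 6 groups, and the culture with the lowest Thbs1 had the lowest in 6 of 6. For Serpinb2 these counts were 4 and 5 of 6, and for the other 7 members 0 to 5 and 1 to 4, with F3 at 5 and 2. Col1a1 at 3.5 h was at 64.6, 26.3, 8.3, 56.1 and 19.8 TPM in controls 1 to 5, the same order as Thbs1 in TPM. At 16 h Col1a1 overlapped between the groups, at 1.37 to 36.3 TPM in the controls, 10.5 to 53.2 TPM with VWF and 4.51 to 45.2 TPM with LPS. The summed fibroblast markers overlapped too, at 1.92 to 43.4 TPM in the controls, 12.6 to 62.1 TPM with VWF and 8.29 to 59.2 TPM with LPS. Another fibroblast marker, Dcn, was chosen after its values were seen. At 16 h it was higher in all 4 LPS cultures (2.23 to 6.74 TPM) than in the controls (0.0493 to 1.53 TPM) and the VWF cultures (0.464 to 1.75 TPM). Of the 4 fibroblast markers 1, Col1a1, reached 10 TPM, and their summed level was 1.92 to 91.8 TPM. The part of fibroblasts in these values was not tested.

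**Figure D3:**
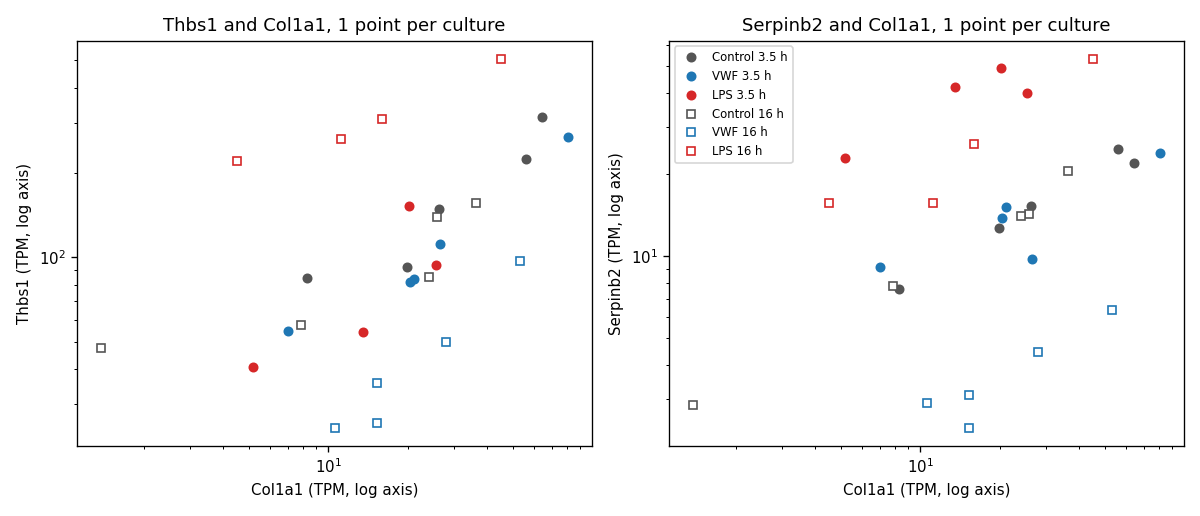
Thbs1 (left) and Serpinb2 (right) against Col1a1, each in TPM on log axes, with 1 point per culture; colour gives the treatment, filled circles are 3.5 h and open squares 16 h. Cultures with more Col1a1 tended to have more of both genes within a group. At 16 h every LPS culture lay above every VWF culture for both genes, and Col1a1 overlapped between these groups. The part of fibroblasts was not tested.

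**Figure D4:**
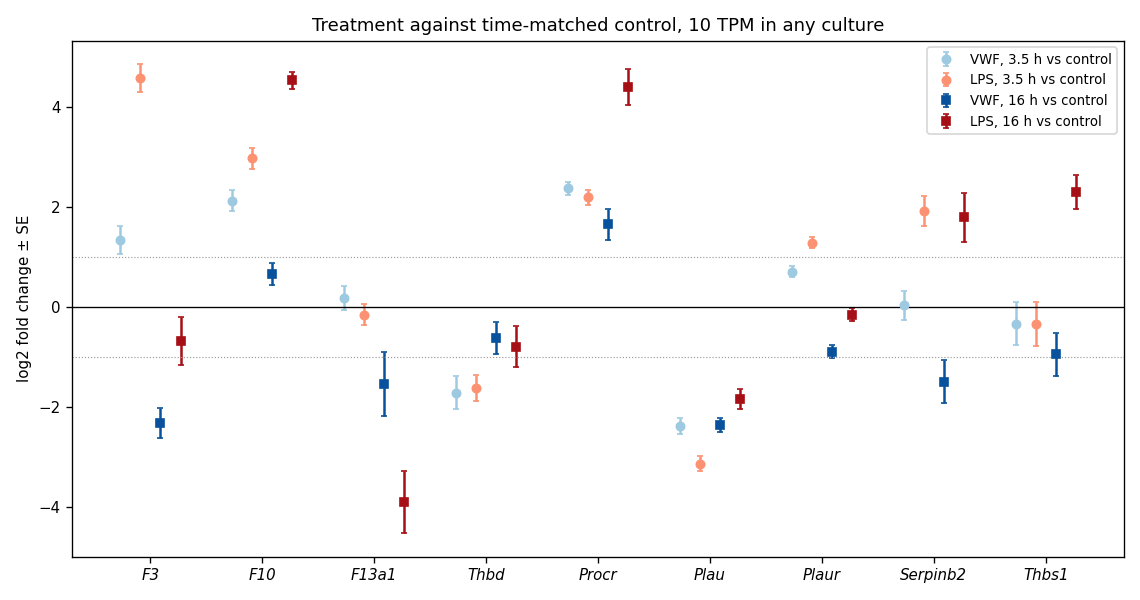
Log2 fold change of VWF or LPS against time-matched control for the 9 members, with SE bars, from the fit of genes at 10 TPM in any of the 28 cultures; dotted lines mark a log2 fold change of 1 in either direction. Plau lies under −1 in all 4 comparisons and Procr over 1 in all 4, whereas F3 is at 1.34 and 4.58 at 3.5 h and at −2.32 and −0.69 at 16 h.

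Other genes of these pathways were taken as 6 lists with 49 genes: other clotting factors, clotting inhibitors, the plasminogen system, thrombin receptors, factor processing, and thrombospondin receptors with an ectonucleotidase. Of these 49, 43 had counts and 17 to 19 entered each comparison. With VWF at 3.5 h, 1 of 18 was called, against 14.7% of all genes: Cd47, a thrombospondin receptor, which rose by 1.21 (SE 0.07, adjusted p = 9.45e-08). With LPS at 3.5 h, 3 of 18 were called, against 24.5% of all genes: Cd47 (1.58, adjusted p = 3.89e-08), S100a10, a plasminogen receptor subunit (1.58, adjusted p = 7.34e-06), and Lrp1, which clears urokinase complexes (−1.14, adjusted p = 0.000142). S100a10 was also the 1 of 17 called between VWF and LPS at 3.5 h (−1.14, adjusted p = 0.000361), against 11.4% of all genes.

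Plat, which codes for tissue plasminogen activator, the other main activator of plasminogen, did not reach 10 TPM in any culture (highest 7.82 TPM) and so was not tested under that filter. It is named here after its values were seen. At 3.5 h the controls were at 0.512, 0.489, 0.202, 0.327 and 0.186 CPM. VWF cultures were at 15.7, 10.9, 14.9, 9.62 and 11.4 CPM, and LPS cultures at 6.05, 5.65, 8.26 and 4.81 CPM. The 3 groups did not overlap, with VWF the highest, whereas Plau was lower with both treatments at that time. In the edgeR fit without a filter, added after the levels had been seen, Plat rose by 5.14 on the log2 scale with VWF (SE 0.27, adjusted p = 6.56e-11, with 9.05% of genes called) and by 4.15 with LPS (SE 0.30, adjusted p = 1.75e-11, with 17.7% called). VWF against LPS gave 0.95 (SE 0.18, adjusted p = 0.000271), under the size of a call. At 16 h the groups overlapped, at 0.360 to 0.618 CPM in the controls, 0.356 to 0.878 CPM with VWF and 0.249 to 1.86 CPM with LPS, and neither treatment passed (VWF 0.15, adjusted p = 0.833; LPS 1.18, adjusted p = 0.13). The control values at 3.5 h rest on 9 to 31 reads per culture.

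At 16 h, Cd36, another thrombospondin receptor, was the 1 of 17 list genes called with VWF, and fell by 1.14 (SE 0.12, adjusted p = 4.85e-05), against 8.71% of all genes. With LPS 4 of 18 were called, against 27.6%. F7, which codes for factor VII, the plasma partner of tissue factor, rose by 1.37 (SE 0.16, adjusted p = 7.46e-05), from 15.1 ± 3.18 CPM in the controls (SD, n = 5) to 40.0 ± 6.69 CPM (n = 4). Serping1, the C1 inhibitor, rose by 2.46 (SE 0.58, adjusted p = 0.00529), and passed the filter through 1 LPS culture alone, at 20.4 TPM. Cd47 rose by 2.00 (SE 0.13, adjusted p = 1.27e-06), while Pros1, which codes for protein S, the cofactor of activated protein C, fell by 1.27 (SE 0.10, adjusted p = 4.17e-06). Between VWF and LPS at 16 h, 3 of 18 were called, against 25.5% of all genes, each lower with VWF: Serping1 (−2.36, adjusted p = 0.00638, through the same culture), Cd47 (−1.77, adjusted p = 1.85e-06) and F7 (−1.17, adjusted p = 0.000585). Between the controls, 1 of 18 was called, Entpd1, an ectonucleotidase that breaks down ADP (−1.38, adjusted p = 3.25e-05), against 9.11%. The change over time was called for 1 of 18 with VWF (Cd47, −1.01, adjusted p = 1.12e-06), against 13.5% of all genes, and 2 of 19 with LPS (S100a10, −2.04, adjusted p = 0.000409, and Pros1, −1.63, adjusted p = 7.36e-09), against 26.3%. None of the 4 thrombin receptors reached 10 TPM in any culture.

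The genes whose pattern was most like each member were found by Pearson correlation of log2 CPM over the 28 cultures among 8867 genes. The cultures share treatments and times, so the values describe a likeness of pattern and carry no test. F3 was most like Slc30a4 (r = 0.964), Lancl2 (0.943) and Sirt1 (0.937). Plaur was most like Noct (0.979), Spryd7 (0.965) and Itgav (0.964). Procr was most like Il2rg (0.975), Il1f9 (0.965) and Lrrc25 (0.954), and F10 was most like Rnf34 (0.976), Tbc1d10b (0.974) and Aldh1b1 (0.971). For Plau the values were 0.936 with Amz1, 0.928 with Ago4 and 0.909 with Rragd. Serpinb2 was most like Ptx3 (0.931), Ccnd2 (0.903) and Clcf1 (0.899), and Thbs1 like Nckap1 (0.909), Cyp1b1 (0.872) and Inhba (0.864). F13a1 was most like Cd81 (0.903), Fcrls (0.881) and Mctp1 (0.871), and Thbd like Elmo2 (0.888), Psrc1 (0.858) and Cdk20 (0.854). Among the members, the closest pairs were F10 with Procr (0.904), F3 with Plaur (0.862) and Serpinb2 with Thbs1 (0.732), and the most opposed pair was Procr with Plau (−0.767).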

How the data were processed

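Sequencing and mapping were done by the authors: per the labels and the methods, paired-end reads of 150 bases were mapped to GRCm38 (mm10) with STAR. The deposited table holds unnormalized, unfiltered counts for 54532 Ensembl genes. Which annotation and strand setting were used, and how multimapping reads were treated, is not given in the sources used here. Labels gave each of the 28 cultures its treatment, time and replicate number.

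From these counts, TPM was computed here with GENCODE M21 exon lengths, and CPM was scaled by TMM factors of the whole set of 28. Following the study's filter, genes under 10 TPM in every culture of a comparison were left out of it. The test was edgeR's quasi-likelihood test (R 4.3.3, edgeR 4.0.16) on the groups compared, with Benjamini-Hochberg adjustment over all genes tested. A call needed an adjusted p under 0.05 and a log2 fold change over 1 in size. The 9 comparisons were each pair of the 3 treatments within a time, the 2 control groups against each other, and the change of each treatment's effect between the times. The scripts were tested on simulated data. No 2 cultures of the same group agreed within sampling noise (lowest chi-square per degree of freedom 15.8 over 52 pairs). Cultures of different groups were not compared in this way.

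The members and lists were chosen with earlier results of these data known. Named genes were the 9 members, at most 3 called list genes per list, direction and comparison among those whose groups did not overlap, the 3 genes most like each member, and the most abundant marker of each other cell type. The motifs and the per-culture marker values were chosen after the results had been seen. To see whether same-numbered cultures behaved as pairs, their deviations from the group means were correlated. Every pair was over 0.1 only for the 4 pairs of VWF with LPS cultures at 16 h, from 0.159 to 0.781. The main tests used the group alone and no pairs, in that comparison too. In the other 6 comparisons of 2 groups the pairs ran from −0.668 to 0.683. Alternatives were DESeq2 1.42.0, other scaling factors, other filters, no fold threshold, all groups in one fit, a replicate block and leaving out each culture. TMM factors were 0.745 to 0.849 in LPS, 0.899 to 1.09 in VWF and 1.04 to 1.24 in control cultures.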

Additional observations from a re-analysis of the deposited data

Results flagged for a closer look

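In 5 of 54 groups of a member, 1 culture stood apart from the rest of its group by a gap test (Dixon), which chance alone gives in about 1 of 20 groups. Thbd was at 9.88 CPM in LPS 16 h replicate 1, with the next culture at 4.38 CPM. Procr was at 38.5 CPM in LPS 3.5 h replicate 1 (next 51.0 CPM), at 6.03 CPM in control 16 h replicate 5 (next 19.8 CPM) and at 290.9 CPM in LPS 16 h replicate 4 (next 427 CPM). Plaur was at 93.3 CPM in LPS 16 h replicate 3 (next 114.6 CPM). Without control 16 h replicate 5, Procr was called between the control groups (1.11, adjusted p = 9.65e-05), and without LPS 16 h replicate 1, Thbd was called with LPS at 16 h (−1.25, adjusted p = 0.0283).

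The effect of a treatment differed between 3.5 h and 16 h for several members, by the test of the difference itself (edgeR, Benjamini-Hochberg adjusted p). In the change with LPS, F3 passed the filter only through the LPS cultures at 3.5 h, and F13a1 only through controls. With VWF the change was −1.45 for F10 (adjusted p = 0.00126), −1.59 for Plaur (adjusted p = 7.16e-07), −1.52 for Serpinb2 (adjusted p = 0.0378) and, in the fit of genes at 10 TPM in any of the 28 cultures, −3.62 for F3 (adjusted p = 8.99e-07), all on the log2 scale. With LPS it was −5.26 for F3 (adjusted p = 8.79e-07), 1.58 for F10 (adjusted p = 0.000164), −3.75 for F13a1 (adjusted p = 0.000102), 2.21 for Procr (adjusted p = 0.00011), 1.30 for Plau (adjusted p = 0.000154), −1.44 for Plaur (adjusted p = 1.2e-06) and 2.63 for Thbs1 (adjusted p = 0.00209).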

How the results depend on the processing

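Apart from leaving out cultures, 76 of 81 counts of called members stayed within 1.5 times the count reported. Without the fold threshold, 5 members were called in VWF against LPS at 3.5 h (50.2% of all genes), 5 in VWF against control at 16 h (27.7%) and 4 between the controls (41.4%); without the filter, 2 between the controls (5.72%). Without the filter, of the 49 list genes 3 were called with VWF (9.05% of all genes) and 7 with LPS (17.7%) at 3.5 h. At 16 h these were 4 with VWF (5.21%) and 10 with LPS (16%), and 10 between VWF and LPS (16.4%). The 4 with VWF by edgeR were F5 (−5.3, adjusted p = 0.000125), Vwf (−1.79, adjusted p = 0.000193), F2r and Cd36, each lower. Of the clotting factors, LPS at 16 h called F7, F8 (3.65, adjusted p = 3.93e-06) and Klkb1 higher and F5 lower (−1.92, adjusted p = 0.0287). Only F7 and Cd36 of these genes had passed the 10 TPM filter. Between the controls 3 were called (5.72%), and for the changes 4 with VWF (6.58%) and 5 with LPS (12.6%). The replicate block gave 5 calls in VWF against control at 16 h (8.58% of all genes), where F13a1 (−1.68, adjusted p = 0.00808) and Thbs1 (−1.05, adjusted p = 0.00279) were added, though those pairs did not all correlate at over 0.1 (−0.57 to 0.612); replicate 1 was the highest of its group for Thbs1 in 6 of 6 groups and for Serpinb2 in 5. Between VWF and LPS at 16 h, where every pair did, the replicate block changed no call on a member. With it, LPS at 16 h also called Thbd (−1.13, adjusted p = 0.00941). Directions turned only for small, uncalled values: with library size scaling VWF at 3.5 h gave −0.0238 for F13a1 and −0.182 for Serpinb2. Thbs1 in VWF against LPS at 3.5 h gave −0.000864 with DESeq2, −0.000915 with median-of-ratios factors, −0.0483 with filterByExpr, −0.0389 without a filter, −0.0113 with 10 TPM in any culture and −0.00537 with all groups in one fit.

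Leaving out 1 culture at a time gave 3 to 4 called members for VWF and 6 to 7 for LPS at 3.5 h, 2 to 4 and 6 to 7 at 16 h, 2 and 4 in both fits of VWF against LPS (3.5 h and 16 h), 1 to 2 between the controls, and 2 to 4 and 7 for the changes with VWF and LPS. Between the controls a second member was added without control 3.5 h replicate 4 (Plaur) or control 16 h replicate 5 (Procr). The change of the VWF effect was called for Thbd without VWF 3.5 h replicate 1 (1.46, adjusted p = 0.0154), and for F13a1 without control 16 h replicate 5 (−1.97, adjusted p = 0.0123) or VWF 16 h replicate 1 (−2.13, adjusted p = 0.0258). Uncalled values turned: VWF at 3.5 h, Thbs1 −0.79 to 0.0161 and Serpinb2 −0.18 to 0.17; LPS at 3.5 h, Thbs1 −0.79 to 0.0275; VWF against LPS at 3.5 h, Thbs1 −0.45 to 0.47; the changes, Plau with VWF −0.0712 to 0.131 and Serpinb2 with LPS −0.58 to 0.16. F13a1 with VWF at 16 h was called by DESeq2 (adjusted p = 0.0353) and with all groups in one fit (adjusted p = 0.0128).

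With library size scaling the median of all genes moved to −0.54 with LPS at 3.5 h and −0.57 at 16 h, and the calls to 708 higher and 2157 lower, and 793 and 2253, from 1047 and 963, and 1221 and 989. For VWF the median was −0.22 at 3.5 h (612 and 643 calls, from 753 and 453). Then Plaur with LPS at 3.5 h (0.76) and Serpinb2 with LPS at 16 h (1.21, adjusted p = 0.0672) lost their calls, and Thbd with LPS at 16 h (−1.38, adjusted p = 0.0264) and Plau in VWF against LPS at 3.5 h (1.06) gained one.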
